A study of Mus musculus with 16 samples.

Results

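The Wnt ligands of the mouse uterus form a set of 10 genes here, made of 9 secreted ligands (Wnt2, Wnt4, Wnt5a, Wnt5b, Wnt6, Wnt7a, Wnt7b, Wnt11 and Wnt16) and Axin2, an intracellular inhibitor of the pathway. They were taken by name, through the RefSeq accession of each array probe, but the set was chosen with earlier results of these data known. All 10 were measured, among 24651 genes and unnamed targets tested. Wnt5b had 2 probes and each other gene had 1, and these 11 probes were well above background on all 16 arrays, with no saturated or outlying spot.

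Wnt proteins are secreted lipid-modified ligands that bind Frizzled receptors. In the canonical branch, binding with an LRP co-receptor stabilises beta-catenin, which then acts with TCF/LEF factors on target genes such as Axin2. Non-canonical ligands such as Wnt5a signal through Ror2 and other receptors without that step. In the mouse uterus, stroma and epithelium make different Wnt ligands, and Wnt4, Wnt5a and Wnt7a are each needed for normal duct, gland or implantation biology.

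Whole uterus RNA of 16 mouse samples was measured on one-colour arrays, with 4 arrays in each of 4 groups. GenD mice had neonatal genistein, an estrogen receptor ligand found in soy, and adult dexamethasone, a synthetic glucocorticoid. GenV mice had neonatal genistein and adult saline vehicle. SalD mice had the neonatal control and adult dexamethasone, and SalV mice had the neonatal control and adult saline vehicle. Genistein was given at 50 mg/kg in corn oil on postnatal days 1 to 5. The neonatal control was 20 µl of corn oil according to the series design, while the sample labels call it saline. All 4 groups had lost their adrenals and ovaries at 6 weeks of age, so every group lacked the main sources of corticosterone and ovarian steroids. Dexamethasone at 1 mg/kg, or 100 µl of saline, was given at 8 weeks, and the uterus was taken 4 h later. Neither animals nor strain are named in the labels. The p-values therefore describe array-to-array spread, and having 4 arrays a group limits the precision.

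A level below is the log2 signal of a probe minus the 75th percentile of its array, and it is compared only within a probe. A change is a log2 fold change from limma with its standard error (SE), and "called" means a Benjamini-Hochberg adjusted p below 0.05 over all 24651 features. The 75th percentile of signal lay between 948 and 2719 per array, lowest on SalV array 3, which was also alone on its slide and scan day. It ran from 1987 to 2719 on the SalD arrays and from 948 to 2029 on the SalV arrays. On the GenV arrays it ran from 1439 to 1970, and on the GenD arrays from 1321 to 1803. A higher percentile takes more off every level of its array. Known glucocorticoid-induced genes separated the treatments: Fkbp5, Tsc22d3, Per1 and Sgk1 were called higher in both dexamethasone comparisons, and none was called between GenV and SalV mice. All 11 uterine epithelium markers were above background on all 16 arrays, as were all listed stroma and smooth muscle markers. Of the 7 ovary and oviduct markers, Foxj1, Inha and Ovgp1 were above background on all 16 arrays, Amh on 14, Fshr on 13, Cyp11a1 on 6 and Lhcgr on 0. Whole uterus cannot tell fewer cells of a type from less RNA per cell.

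Dexamethasone lowered 5 of the 10 genes in mice without neonatal genistein. Wnt2, Wnt4, Wnt5a, Wnt5b and Wnt16 fell by between 1.19 and 2.04 on the log2 scale, or 2.28 to 4.11-fold. No gene of the set was called higher. Of the 10 changes 7 were negative and 3 positive, namely Wnt11 at 0.73, Axin2 at 0.51 and Wnt7b at 0.16. Over all features, 23% were called in this comparison of SalD with SalV, 14.6% lower and 8.45% higher. The median change was -0.82 over the 10 genes and -0.16 over all features. In these 5 genes, the SalD and SalV arrays did not overlap, but how often that held over all features was not counted.

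Wnt2, a canonical ligand made in uterine stroma, had the largest change of the 10. Its levels were -2.52, -2.30, -2.71 and -2.51 on the SalD arrays, against -0.37, -0.53, -0.64 and -0.35 on the SalV arrays. Every SalD array lay far below every SalV array, and the spread within each group was small. The change was -2.04 (SE 0.29, limma adjusted p = 0.000647), with within-slide values of -2.04, -1.99 and -2.36 on slides 1, 3 and 4. Wnt2 also fell after neonatal genistein, where the GenD arrays had -2.01, -3.02, -2.70 and -2.51, against 0.11, -0.28, -1.58 and -0.70 on the GenV arrays. GenV array 3, at -1.58, stood nearest to the dexamethasone arrays, yet the groups did not overlap. The change there was -1.95 (SE 0.29, adjusted p = 0.00144), and -2.46, -2.32 and -2.23 within slides 2, 3 and 4.

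Wnt4, which is needed for Müllerian duct formation and for decidualisation of the stroma, fell 3.64-fold in controls. On the SalD arrays it had -1.35, -1.39, -1.13 and -0.58, against 0.97, 0.41, 0.96 and 0.66 on the SalV arrays. The change was -1.86 (SE 0.22, adjusted p = 0.00014), and -1.96, -1.76 and -1.79 within slides 1, 3 and 4. After genistein it had 0.29, 0.44, 0.22 and -0.12 on the GenD arrays, against 0.57, 0.49, 1.07 and 1.09 on the GenV arrays. These groups were apart by a small margin, and the change of -0.59 (SE 0.22) was not called (adjusted p = 0.144).

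Wnt16, a further secreted ligand, fell in both settings. Its SalD levels were -1.77, -1.66, -2.22 and -2.16, against -0.91, -0.30, -0.48 and -0.85 on the SalV arrays, with a change of -1.32 (SE 0.22, adjusted p = 0.00157). The GenD arrays had -1.42, -1.85, -1.81 and -1.94, against -0.43, -0.43, -1.0 and -1.27 on the GenV arrays. GenD array 1 and GenV array 4 came closest to each other without crossing. The change after genistein was -0.97 (SE 0.22, adjusted p = 0.0203), and -1.18, -0.58 and -1.51 within slides 2, 3 and 4. That call was lost in 7 of 31 alternatives, among them the omission of GenV array 1 or 2 or of GenD array 2, 3 or 4, with changes of -0.85, -0.85, -0.94, -0.95 and -0.91 and adjusted p-values of 0.0649, 0.0584, 0.0576, 0.0593 and 0.0571.

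Wnt5a, the non-canonical ligand needed for uterine glands and implantation in mice, was tight across the SalV arrays. It had -4.41, -4.39, -4.12 and -3.72 on the SalD arrays, against -2.87, -2.98, -2.88 and -2.84 on the SalV arrays, and a change of -1.27 (SE 0.19, adjusted p = 0.000776). Its signal was low on every array, between 87.2 and 283 units. On the GenD arrays it had -3.86, -3.82, -3.78 and -3.79, against -3.22, -3.15, -4.04 and -3.42 on the GenV arrays. GenV array 3 lay below all 4 GenD arrays, and the change was not called (adjusted p = 0.369).

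Wnt5b, a close relative of Wnt5a, fell in SalD mice by both of its probes. The brighter probe had -0.08, 0.16, -0.53 and -0.76 on the SalD arrays, against 0.97, 0.66, 1.08 and 0.83 on the SalV arrays. The change was -1.19 (SE 0.23, adjusted p = 0.00357), and -1.23 (SE 0.25, adjusted p = 0.00439) by the second probe. After genistein the brighter probe had 0.21, 0.29, -0.07 and -0.10 on the GenD arrays, against 0.97, 1.14, 0.58 and 0.17 on the GenV arrays. The groups overlapped through GenV array 4, and the change of -0.63 (SE 0.23) was not called (adjusted p = 0.147).

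**Figure D1:**
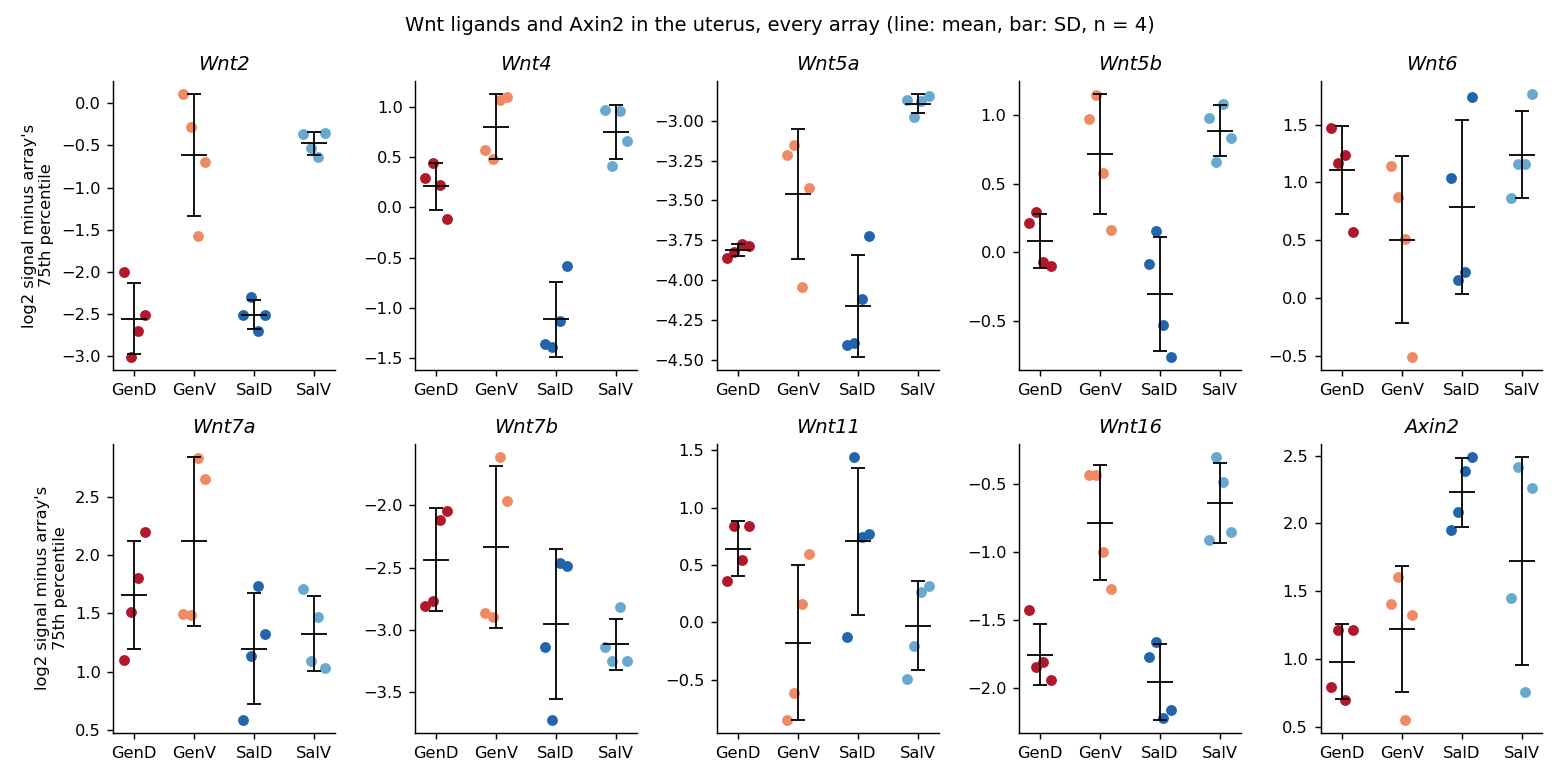
Level of each of the 10 genes on every array, as log2 signal minus the array's 75th percentile. Each panel shows the GenD, GenV, SalD and SalV arrays as points, with the group mean as a line and the SD as a bar (n = 4), and each panel has its own axis. Wnt2 and Wnt16 are low in both dexamethasone groups, while Wnt4 lies between -1.39 and -0.58 in SalD mice and between -0.12 and 0.44 in GenD mice.

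Promoters of 4 of these 5 genes are shown because a receptor or AP-1 element near the transcript start would lie in such a window. They are the 250 bases before the start on the gene's strand, from RefSeq on GRCm38.p6, for Wnt2 (chr6:18030446-18030695, minus strand), Wnt4 (chr4:137277385-137277634, plus strand), Wnt16 (chr6:22287977-22288226, plus strand) and the first start of Wnt5b (chr6:119544348-119544597, minus strand). Capitals mark a match to a motif searched on both strands.
Wnt2: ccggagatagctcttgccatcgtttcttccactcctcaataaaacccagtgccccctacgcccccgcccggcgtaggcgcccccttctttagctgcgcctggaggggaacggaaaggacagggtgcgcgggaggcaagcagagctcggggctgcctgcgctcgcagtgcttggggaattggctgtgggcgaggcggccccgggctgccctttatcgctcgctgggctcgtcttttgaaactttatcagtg
Wnt4: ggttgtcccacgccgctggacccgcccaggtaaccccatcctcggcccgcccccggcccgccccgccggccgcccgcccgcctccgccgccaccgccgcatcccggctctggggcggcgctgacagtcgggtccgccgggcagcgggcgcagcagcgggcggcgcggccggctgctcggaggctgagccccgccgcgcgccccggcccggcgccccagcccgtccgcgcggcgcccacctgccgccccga
Wnt16: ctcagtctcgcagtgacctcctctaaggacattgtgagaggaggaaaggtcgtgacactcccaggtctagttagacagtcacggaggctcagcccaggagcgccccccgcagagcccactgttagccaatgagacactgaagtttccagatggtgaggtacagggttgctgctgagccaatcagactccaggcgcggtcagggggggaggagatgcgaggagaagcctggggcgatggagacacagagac
Wnt5b: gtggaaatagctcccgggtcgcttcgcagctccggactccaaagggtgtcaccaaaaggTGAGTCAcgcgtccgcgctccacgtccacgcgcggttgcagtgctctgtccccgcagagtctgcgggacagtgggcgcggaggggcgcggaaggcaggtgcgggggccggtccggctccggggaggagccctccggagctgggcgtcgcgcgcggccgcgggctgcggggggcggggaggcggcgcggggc
The glucocorticoid receptor palindrome, GNACA and TGTNC with 3 bases between, was in 0.387% of 32851 windows of this length, and in none of the members' windows. The AP-1 element TGANTCA was in 6.75% of windows and matched the Wnt5b window as TGAGTCA, 191 bases before the start. The TCF/LEF element CTTTGA, in 13.8% of windows, matched Wnt11 at 50 bases before its start and a further start of Wnt5b at 71 bases. The estrogen response element, GGTCA and TGACC with 3 bases between, was in 0.0639% of windows and matched no member. GC content was 85.2% for Wnt4, 75.2% for Wnt5b, 63.6% for Wnt2 and 59.2% for Wnt16. A match is only these letters in this window, and no motif overlapped another. Windows were matched for 8 of the 10 genes, without Wnt5a and Wnt7b.

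The other 5 genes were not called under dexamethasone in either setting. Wnt11, a non-canonical ligand, had 0.36, 0.84, 0.54 and 0.84 on the GenD arrays, against -0.85, -0.61, 0.16 and 0.60 on the GenV arrays. Only GenV array 4 overlapped the GenD range, and the difference of 0.82 (SE 0.35) was not called (adjusted p = 0.224). In controls Wnt11 had -0.13, 1.44, 0.74 and 0.77 on the SalD arrays, against -0.50, -0.20, 0.27 and 0.32 on the SalV arrays (adjusted p = 0.139). SalD array 1 lay within the SalV range and the other SalD arrays above it. Wnt6, linked to stromal proliferation during decidualisation in mice, averaged 0.79 ± 0.75 on the SalD arrays and 1.24 ± 0.38 on the SalV arrays (SD, n = 4 each). Its adjusted p was 0.427 there and 0.476 between GenD and GenV.

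Over the genistein-treated mice, 2 of the 10 genes, Wnt2 and Wnt16, were called lower under dexamethasone and none higher. Of the 10 changes 8 were negative and 2 positive, namely Wnt11 at 0.82 and Wnt6 at 0.61. Over all features, 5.29% were called and 2.8% were called lower in the comparison of GenD with GenV. The median change was -0.41 over the 10 genes and -0.01 over all features. Beside these falls, 3 of 9 stroma markers were called higher (Hand2, Hoxa10 and Hoxa11) and 2 lower (Col3a1 and Lum), with summed scaled signals of 150 to 176 in GenD and 162 to 196 in GenV mice. Of 6 leukocyte markers, 1 was called lower. Their mean deviations did not overlap, at -0.68 to 0.08 in GenD and 0.12 to 0.51 in GenV mice, and their sums ran from 3.12 to 5.11 and from 5.08 to 8.47 in those groups. None of the epithelial, smooth muscle, endothelial or adipocyte markers was called, while Lrrn4 among 5 mesothelium markers was lower and Ovgp1 among 6 ovary and oviduct markers higher. The part of cell content was not tested. Without GenV arrays 3 and 4, Wnt2 was at -2.47 and Wnt16 at -1.32, both still called. The plot of dexamethasone changes sets both comparisons side by side for each gene.

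**Figure D2:**
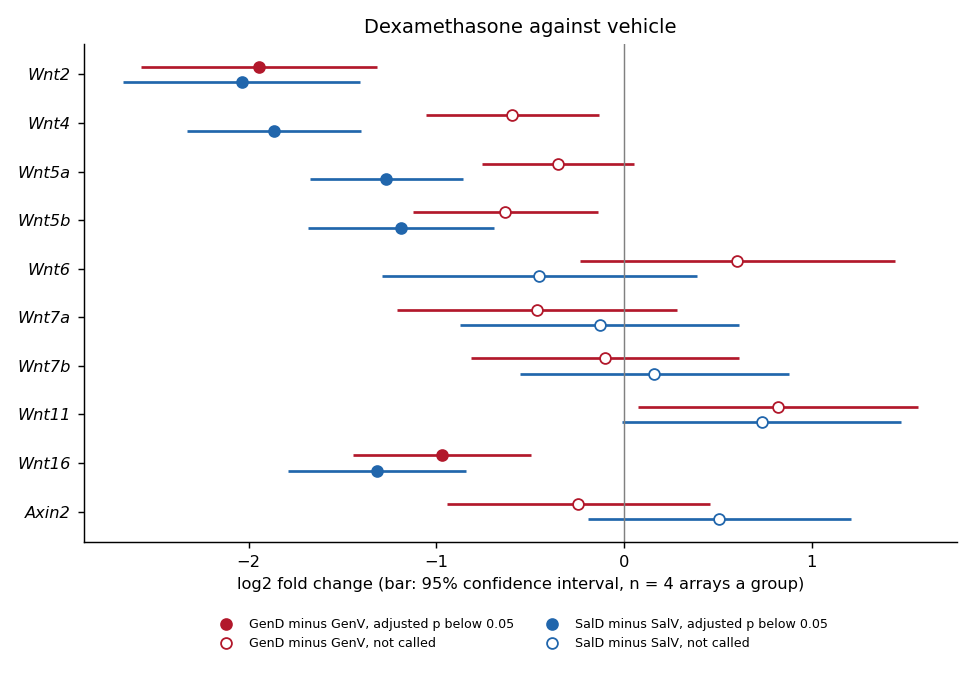
Dexamethasone change of each gene in log2 units, GenD minus GenV above SalD minus SalV, with 95% confidence intervals. Filled points have an adjusted p below 0.05. Wnt2 lies at -1.95 and -2.04, while Wnt4 lies at -0.59 and -1.86.

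The difference between these dexamethasone changes was tested directly as an interaction, GenD minus GenV less SalD minus SalV. None of the 10 genes was called, and 0% of all features were. At an unadjusted p below 0.05 there were 2 of the 10 genes and 3830 of 24651 features. Wnt4 had the widest gap of the called ligands, at 1.27 (SE 0.31, unadjusted p = 0.000943, limma adjusted p = 0.162). Its adjusted p over 30 alternatives ran from 0.0455, with array weights, to 0.423. Wnt5a followed at 0.92 (SE 0.27, adjusted p = 0.19), and Wnt2 was at 0.09 (SE 0.42, 95% interval -0.80 to 0.98, adjusted p = 0.928). The larger fall of Wnt4 in controls did not pass the test of the difference across all features.

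Under dexamethasone, 2 of the 10 genes differed between genistein and control mice, Wnt4 upward and Axin2 downward. Over all features, 22.9% were called in this comparison of GenD with SalD, 16.5% higher and 6.39% lower. The 2 of 10 called is thus no more than the share over all features. The median change was 0.34 over the 10 genes and 0.12 over all features. This comparison shares the SalD arrays with that of SalD and SalV, so a low SalD level enters both.

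Wnt4 was higher in all 4 GenD arrays, from -0.12 to 0.44, than in the SalD arrays, from -1.39 to -0.58. The change was 1.32 (SE 0.22, 2.50-fold, adjusted p = 0.00357), with 1.80 and 1.01 within slides 3 and 4. Without SalD arrays 2 and 3 together it was 1.18 (adjusted p = 0.0221). Its group means were 0.21 ± 0.24 in GenD mice and 0.80 ± 0.32 in GenV mice (SD, n = 4 each), and -1.11 ± 0.37 in SalD mice and 0.75 ± 0.27 in SalV mice. The SalD arrays stood below all others. The GenD arrays lay below all GenV arrays, but overlapped the SalV arrays through GenD array 2 and SalV array 2, and the vehicle groups overlapped each other.

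Axin2, a destruction complex scaffold induced by canonical Wnt signalling, was lower in GenD than in SalD mice. Its levels were 0.79, 1.22, 0.70 and 1.21 on the GenD arrays, against 1.95, 2.08, 2.39 and 2.49 on the SalD arrays. No array crossed between them, and the change was -1.25 (SE 0.33, 2.38-fold lower, adjusted p = 0.0176), or -0.74 and -1.17 within slides 3 and 4. Without SalD arrays 2 and 3 together the call was lost at -1.24 (adjusted p = 0.0834), and without GenD array 3 at -1.16 (adjusted p = 0.0504). Neither vehicle group stood apart: Axin2 had 1.40, 1.61, 0.55 and 1.33 on the GenV arrays, against 1.45, 2.41, 0.76 and 2.26 on the SalV arrays (adjusted p = 0.451). SalD arrays lay near the top of that vehicle range and GenD arrays near its lower end. Dexamethasone against vehicle was not called for Axin2 in genistein mice (adjusted p = 0.791) or in controls (adjusted p = 0.277). Of 16 other canonical target genes measured, 1 was called higher in GenD than in SalD mice and none lower. Their median change was -0.05.

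**Figure D3:**
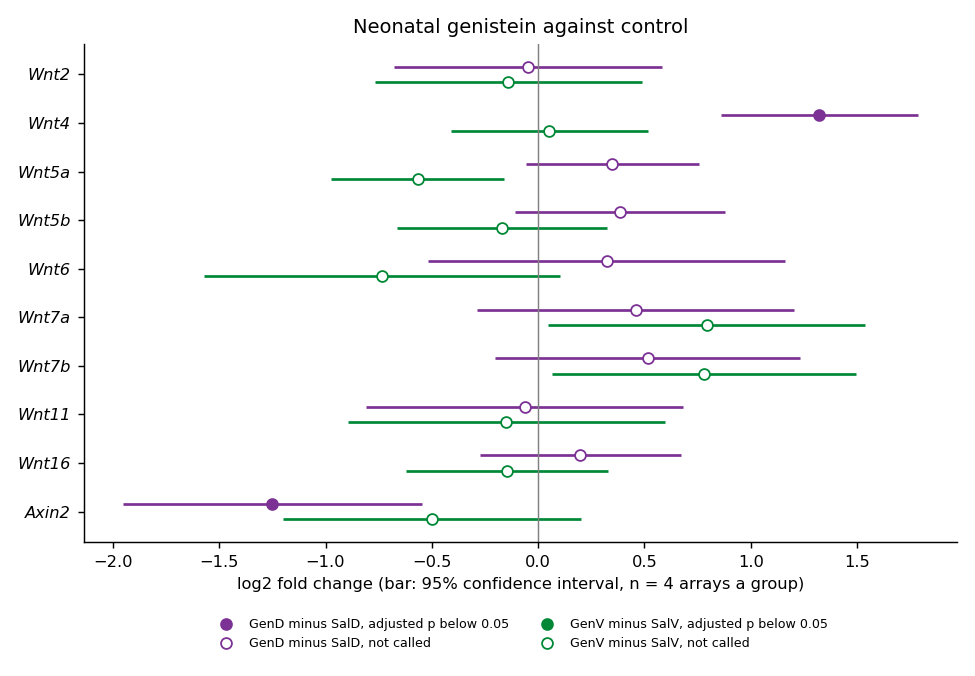
Genistein change of each gene in log2 units, GenD minus SalD above GenV minus SalV, with 95% confidence intervals. Filled points have an adjusted p below 0.05, which are Wnt4 at 1.32 and Axin2 at -1.25, both under dexamethasone.

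Without dexamethasone, none of the 10 genes differed by call between GenV and SalV mice, where 0.00406% of all features, or 1 feature, were called. At an unadjusted p below 0.05 there were 3 of the 10 genes and 3427 features. The median change was -0.15 over the 10 genes and 0.05 over all features. Wnt5a had -3.22, -3.15, -4.04 and -3.42 on the GenV arrays, against -2.87, -2.98, -2.88 and -2.84 on the SalV arrays. Each GenV array was below each SalV array, with a change of -0.57 (SE 0.19) that was not called (adjusted p = 0.344). It was the only one of the 10 genes whose vehicle groups did not overlap. Such separation was not particular to it, since listed pathway genes such as Lgr5, Wnt9a and Myc were also apart there. How often it held over all features was not counted.

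Wnt7a and Wnt7b, ligands of the uterine epithelium, were high on a pair of GenV arrays. Wnt7a, which is needed for patterning of the female tract, had 1.5, 1.49, 2.84 and 2.65 on the GenV arrays, against 1.71, 1.09, 1.47 and 1.03 on the SalV arrays. GenV arrays 3 and 4 stood above every SalV array, while GenV arrays 1 and 2 lay within the SalV range. The change was 0.79 (SE 0.35) and was not called (adjusted p = 0.354). Wnt7b had -2.86, -2.89, -1.61 and -1.97 on the GenV arrays, against -3.14, -3.25, -2.82 and -3.25 on the SalV arrays, a change of 0.78 (SE 0.33, adjusted p = 0.351). Here too arrays 3 and 4 were the high pair.

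Epithelial markers moved with the same arrays. The mean deviation of 11 epithelial markers was 0.55 on each of GenV arrays 3 and 4, against -0.34 and -0.30 on GenV arrays 1 and 2 and -0.38 to 0.10 on the SalV arrays. The summed scaled signal of the list ran from 155 to 319 on the GenV arrays and from 144 to 239 on the SalV arrays. None of these markers was called in any comparison. GenV array 3 was also low in smooth muscle markers, at -0.76. Under dexamethasone, Wnt7a had 1.10, 1.51, 1.80 and 2.20 on the GenD arrays, against 0.59, 1.14, 1.74 and 1.33 on the SalD arrays. Its highest GenD array, array 4, also had the highest epithelial deviation of that group, at 0.53. The part of epithelial content in these levels was not tested.

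**Figure D4:**
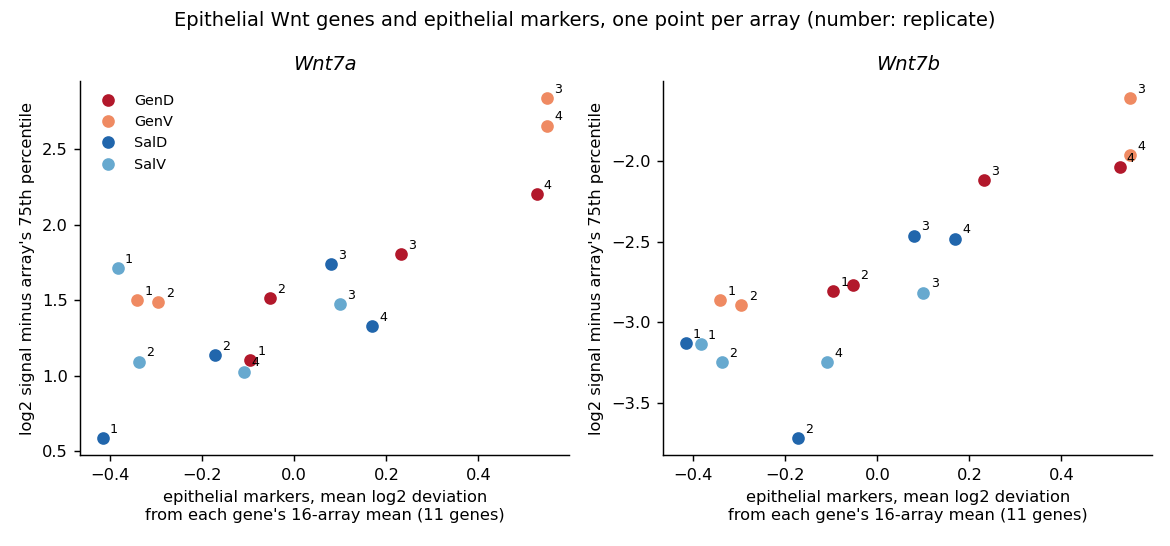
Level of Wnt7a and Wnt7b against the mean log2 deviation of 11 epithelial markers, with a point for each of the 16 arrays, coloured by group and numbered by replicate. GenV arrays 3 and 4 lie at the upper right of both panels, at a marker deviation of 0.55.

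Other cell type markers moved beside the dexamethasone falls of SalD mice. Of 7 measured smooth muscle markers, 2 were called lower and none higher, where 14.6% of all features were called lower. Their summed scaled signal ran from 83.3 to 170 in SalD and from 187 to 305 in SalV mice. With group means removed, their mean deviation had Pearson's r of 0.65 with Wnt2, 0.74 with Wnt5b and 0.75 with Wnt16. It was 0.08 with Wnt5a and -0.39 with Wnt4. Epithelial markers gave -0.60, -0.71 and -0.71 with Wnt2, Wnt5b and Wnt16, and -0.20 and 0.48 with Wnt5a and Wnt4. The part of these cell types in the falls was not tested. Of 6 endothelial markers, 2 were called lower, with sums of 12.2 to 16.1 in SalD and 13.3 to 16.5 in SalV mice. Of 6 adipocyte markers, 5 were called higher, with sums of 7.43 to 130 in SalD and 0.777 to 11.1 in SalV mice. Epithelial markers had none called, and stroma markers had 1 higher and 2 lower of 9. Basal squamous markers had 2 higher of 6, mesothelium markers 1 higher and 1 lower of 5, and leukocyte and ovary markers 1 lower of 6 each. Without SalD arrays 2 and 3, the arrays with the most adipocyte signal, the changes were -2.04 for Wnt2, -1.72 for Wnt4, -1.17 for Wnt5a, -1.31 for Wnt5b and -1.33 for Wnt16, all still called. This omission is no test of cell content. SalD array 4 stayed in, with an adipocyte sum of 50.3 and the lowest smooth muscle sum, 83.3. In GenD against SalD mice, where Axin2 was lower, 2 of 6 basal squamous markers were called lower. Their sums ran from 4.22 to 17.0 in GenD and from 14.9 to 31.8 in SalD mice. Their mean deviation had r of 0.11 with Axin2 over the 16 arrays, and -0.21 with group means removed. Of 6 ovary and oviduct markers 2 were called higher, with sums of 1.19 to 1.99 in GenD and 0.907 to 1.53 in SalD mice. Their r with Axin2 was -0.57 over the 16 arrays, and -0.003 with group means removed. Of leukocyte and mesothelium markers, 1 of 6 and 1 of 5 were also called lower there. Their part was not tested.

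Around these ligands, 85 of 93 listed pathway and partner genes were measured. Dexamethasone raised 12 and lowered 9 of them in controls, and raised 6 and lowered 5 after genistein, with 23% and 5.29% of all features called. In controls the called part of the 85 genes was near that share. Over all features, 8.45% were called higher and 14.6% lower in controls, and 2.49% higher and 2.8% lower after genistein. The counts of each list below are to be read beside these shares. Their median change was -0.02 in controls and 0.05 after genistein, against -0.16 and -0.01 over all features. Of the 43 calls in the 3 comparisons that gave any, all 43 were called with quantile normalization, 40 with median scaling and 27 with normexp, where 2 turned direction (Rspo2 and Wnt2b). None was called in GenV against SalV mice, where 0.00406% of all features were called. In GenD against SalD mice 5 of the 85 were called higher and 6 lower. Over all features, 22.9% were called there, 16.5% higher and 6.39% lower.

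Among other ligands, 6 of 10 were measured, and dexamethasone in controls raised 2 and lowered 1. Wnt10a was higher by 1.68 (SE 0.44, and 1.00 with normexp, adjusted p = 0.0961) and Wnt9a lower by 1.42 on the log2 scale (SE 0.26), and a second Wnt9a probe gave -2.08. Wnt2b was called higher at 1.65, but was above background on 1 of 4 SalV arrays and turned to -0.51 with normexp background correction. In GenD against SalD mice, Wnt1 was higher by 1.49 (SE 0.33, adjusted p = 0.00874).

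Receptors gave 3 rises and 1 fall among 15 in controls, and 2 rises after genistein. Fzd9, a Frizzled receptor, rose by 1.91 after genistein (SE 0.26) and by 2.45 in controls (SE 0.26). Its rises kept their direction but lost their call with normexp, at 1.67 and 1.00. Fzd4, known for vascular Norrin signalling, rose by 0.72 after genistein and 0.80 in controls (SE 0.17 each). The call after genistein was lost with normexp, at 0.64 (adjusted p = 0.0979). Fzd1 rose by 0.75 in controls. Ror2, the Wnt5a receptor kinase, fell in controls by 1.41 (SE 0.27), and was higher by 1.49 in GenD than in SalD mice (SE 0.27, adjusted p = 0.00433). A second Ror2 probe gave -0.79 and 1.20. Fzd2 was called higher in GenD than in SalD mice at 0.91, while a second probe gave 0.03.

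The R-spondins, secreted enhancers of Wnt signalling that act through Lgr receptors, gave 2 falls in each setting among 9 genes of that axis. Rspo1 fell by 1.15 after genistein (SE 0.14, adjusted p = 0.000351) and by 1.05 in controls (SE 0.14, adjusted p = 0.000398). No dexamethasone array showed Rspo2 well above background. With the dexamethasone arrays taken at no less than the detection limit, its mean was 1.55-fold lower in GenD than in GenV mice. In SalD against SalV mice it was 2.16-fold lower. Vehicle arrays not above background entered the vehicle means, so these values are no strict lower bounds. Rspo2 was above background on 3 GenV and 2 SalV arrays. With normexp its GenD minus GenV value turned to 0.76, and its SalD minus SalV value of -1.48 was not called (adjusted p = 0.0955). Znrf3, which removes Frizzled receptors from the membrane, rose by 0.69 in controls. The receptor gene Lgr4 rose by 0.82 in controls and was lower by 0.80 in GenD than in SalD mice, but its 2 other probes ranged from -0.03 to 0.78 and from -0.64 to 0.28.

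Secreted antagonists gave 2 falls and no rise among 10, the same counts after genistein and in controls. These were Dkk2, an antagonist of LRP co-receptors, and Sfrp4, a Wnt-binding protein, at -2.25 and -1.5 after genistein and -1.58 and -1.33 in controls. Canonical target genes gave 3 rises and 1 fall among 16 in controls, with Myc at 0.91, Bambi at 0.75 and Znrf3 at 0.69 up and the adhesion receptor gene Cd44 down by 1.06 on the log2 scale. After genistein Cd44 also fell, by 1.17. Notum, which removes the lipid from Wnt proteins, was higher by 0.58 in GenD than in SalD mice and lost this call with median scaling (adjusted p = 0.0637) and with normexp (0.0521).

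Dexamethasone in controls gave 1 rise and 1 fall among 10 cytoplasmic genes and none called among 9 nuclear genes, and after genistein none of either was called. In GenD against SalD mice, Dvl1 was higher by 0.72 and Dvl2 lower by 0.62, both Dishevelled adaptors downstream of Frizzled. With normexp Dvl2 was not called, at -0.49 (adjusted p = 0.0555). The coactivator gene Pygo1 was lower by 1.25 (-0.28 with normexp, adjusted p = 0.559) and Tcf7l2 by 0.65, though other Tcf7l2 probes ranged from -0.39 to 0.80 and normexp ended its call (adjusted p = 0.0521). Among 13 partner genes of uterine Wnt biology, dexamethasone raised 4 after genistein, namely Hoxa11 (1.46), Hoxa10 (1.36), Hand2 (1.01, a call lost with normexp at 0.93, adjusted p = 0.0885) and Ihh (2.03). In controls it raised Hoxa11 (0.90) and Fst (2.45) and lowered Nr2f2 (-0.53), a call lost with median scaling (adjusted p = 0.239) and with normexp (0.149).

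**Figure D5:**
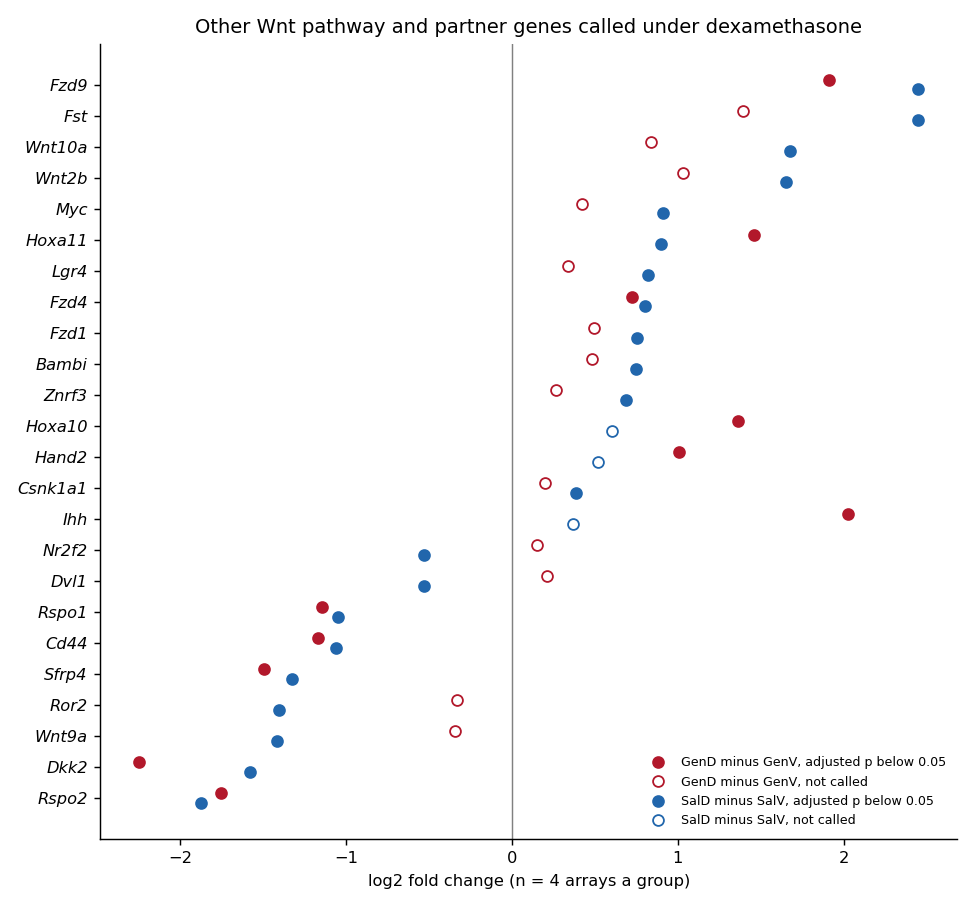
Dexamethasone change in log2 units of the 24 listed pathway and partner genes called in at least 1 of the 2 dexamethasone comparisons, GenD minus GenV above SalD minus SalV (n = 4 arrays a group). Filled points have an adjusted p below 0.05. Dkk2, Sfrp4, Rspo1, Rspo2 and Cd44 are filled on the left in both comparisons, and Fzd9, Fzd4 and Hoxa11 on the right.

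Genes with the most similar pattern to each called member were ranked by Pearson's r over the 16 arrays, given as a description since the arrays share groups and scaling. For Wnt2 they were Mmrn2 (0.948), Zmynd15 (0.947) and Ddit4l (0.946), and for Wnt16 they were Mmrn2 (0.966), Zmynd15 (0.964) and Vat1 (0.956). Wnt2 and Wnt16 thus shared their closest pair. Wnt4 was nearest to Efna1 (0.942), Bcl3 (0.935) and Cars2 (0.928), and Wnt5a to Rap2a (0.907). Wnt5b was nearest to Septin5 (0.973), whose r was 0.955 after group means were removed, against 0.677 for Mmrn2 with Wnt2. Axin2 was nearest to Zfp994 (0.930).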

How the data were processed

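Whole uterus RNA was hybridised in Cy3 to 16 one-colour Agilent arrays of 45018 spots. The deposited values are spot intensity, background-subtracted by Agilent Feature Extraction 12.0.0.7 per the file headers (version 9.5 per the submitters' processing notes), on a linear scale and not scaled between arrays. The deposited 0 or 1 spot flags, scores per the file headers, marked outliers and spots well above background. Here log2 intensity minus the 75th percentile of non-control spots was used. Outlier spots were set aside, repeat spots were averaged within a probe, and 807 incomplete probes were dropped. Probes well above background on at least 4 arrays were kept (32598). Symbols came from RefSeq accessions (28223 of 29245 matched), and the brightest probe stood for a gene.

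In limma 3.58.1 (R 4.3.3), 1 linear model with a mean for each of 4 groups used all arrays, and tests were two-sided, with Benjamini-Hochberg adjustment within each of 5 comparisons. The test was checked on simulated data. Fold values for probes above background in only 1 of the groups compared used the detection limit of each array as a floor for the other group. The brighter group's mean was taken over all its arrays. The members, lists and named genes were chosen with earlier results of these data known, so they are no independent support. The named pathway genes are drawn from the up to 4 called genes of each list with the largest change in a comparison. Slides, numbered 1 to 5 from the array identifiers, were tested as blocks. The alternatives were other scaling, background, filter, probe, block, weight and array choices. Plots used matplotlib 3.10.9 (Python 3.11.15).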

Additional observations from a re-analysis of the deposited data

Results flagged for a closer look

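Among 44 sets of 4 arrays tested (11 probes in 4 groups), 1 array lay far from the others of its group, and chance flags about 1 in 20 such sets. It was GenD array 2 for the second, dimmer probe of Wnt5b, at -2.11 log2, above the other GenD arrays. The brighter Wnt5b probe had its highest GenD level, 0.29, on the same array.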

How the results depend on the processing

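The count of called genes for SalD against SalV was 5 in all 31 alternatives, and for GenV against SalV it was 0 in all 31. For GenD against GenV the count of 2 became 1 with normexp or with only the compared groups fitted, 5 with array weights and 4 without GenV arrays 3 and 4, and ran from 1 to 2 when each array was left out. For GenD against SalD the count of 2 became 4 with array weights and 1 without SalD arrays 2 and 3, and ran from 1 to 2 with each array left out. For the interaction the count of 0 became 1 with array weights (Wnt4, 1.37, adjusted p = 0.0455). Wnt16 in GenD against GenV was -0.59 (adjusted p = 0.319) with normexp and -0.97 (0.0848) with only the compared groups. Wnt5b and Wnt11 in that comparison became called with array weights (-0.98 and 1.21) and without GenV arrays 3 and 4 (-0.97 and 1.38). The causes were not tested. None of the 17 changes at an unadjusted p below 0.05 turned direction, and of the other 33, 20 turned in some alternative and 3 were called in some.

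Over all features, SalD against SalV gave 5669 calls as reported, 3332 with normexp, 3585 without SalD arrays 2 and 3, 3107 without SalV array 1 and 3565 without SalD array 4. GenD against GenV gave 1303, and 379 with normexp, 571 with only the compared groups, 831 with slide as a fixed block and 6065 with array weights. The interaction gave 0, and 96 with array weights. The median over all features in SalD against SalV was -0.16 as reported, -0.04 with quantile normalization, 0.07 with median scaling and -0.49 with normexp. With the replicate number as a block, the 5 counts stayed at 5, 2, 0, 2 and 0, and Wnt2 in SalD against SalV was -2.04 (adjusted p = 0.00073). Deviations of arrays sharing a number correlated between -0.37 and 0.38 (median 0.03), over 0.1 in 8 of 24 pairs. For arrays with different numbers the range was -0.42 to 0.39 (median -0.04), over 0.1 in 16 of 72 pairs. The numbers were not taken to pair arrays. Normexp used the median spot signal. Dim probes such as Wnt5a, Wnt7b and Wnt2b have the least signal over background.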
